A study of Mus musculus with 12 samples.

Results

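Cass4 and its relatives Bcar1, Nedd9 and Efs make up the Cas family of scaffold proteins, and their mRNA levels are described here in RNA-seq libraries of the whole spinal cord, from 12 mice 1 week old. The members were taken by gene name, 4 of the 38924 genes in each table, and each name had 1 row. The family was chosen by measured values, namely the TPM and CPM of Cass4 in P278KY against wt libraries, so every genotype difference of the 4 members is given as a description with no test. Of the mice, 6 carried the P278KY allele of Gars over a wt allele (females 4, 7 and 10 and males 3, 5 and 13) and 6 were wt (females 1, 2 and 14 and males 6, 9 and 19, numbered by mouse as in the labels). Gars encodes glycyl-tRNA synthetase, and one mutant copy of the human gene can lead to an inherited neuropathy of peripheral axons. The allele is carried in every cell of the mouse, all mice share the strain background B6J;CAST, and the series title places this age before onset of disease. Libraries came from bulk tissue, so fewer cells of a type and less RNA per cell cannot be told apart.

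Cas proteins have no enzyme activity of their own. They carry an SH3 domain at the N-terminus, a long stretch of tyrosine motifs, and a C-terminal domain that takes them to focal adhesions, the sites where integrins tie the cytoskeleton to the matrix. Focal adhesion kinase and Src family kinases phosphorylate the tyrosines, the adaptor Crk binds them, and the exchange factor Dock1 then activates the GTPase Rac1, which drives cell movement and the growth of axons. Bcar1, also called p130Cas, is the broadly expressed member and takes part in axon guidance by netrin. Nedd9, also called HEF1 or CasL, works in cell migration and at the centrosome with Aurora A kinase. Efs, also called Sin, is studied mostly in thymus and T cells. Cass4, also called HEPL, was the last member described, and human variants near its gene are linked to Alzheimer's disease.

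Cass4 (ENSMUSG00000074570) lies on mouse chromosome 2, at chr2:172393794-172433757 on the plus strand of GRCm38. An antisense gene, Gm14455 (ENSMUSG00000087633), lies across its end on the minus strand at chr2:172425804-172440560, and both share exonic sequence. The shared stretch is 1130 bases long, at chr2:172426636-172427765 in exon 5 of Cass4, and makes up 52.7% of the exonic length of Gm14455 and 21.2% of that of Cass4. The first line below shows the last 40 bases of Cass4 exon 4 in lower case and the first 40 bases of exon 5 in capitals. The second shows the same 40 shared bases as Gm14455 reads them on the other strand. They are shown because a fragment that crosses the junction can belong to Cass4 alone, while one within the capitals matches both genes unless the strand of the read is used.
Cass4 exon 4 to 5, plus strand: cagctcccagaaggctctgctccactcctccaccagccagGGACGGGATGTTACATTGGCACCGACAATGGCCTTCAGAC
Gm14455, minus strand: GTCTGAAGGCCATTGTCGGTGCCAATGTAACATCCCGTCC

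**Figure D1:**
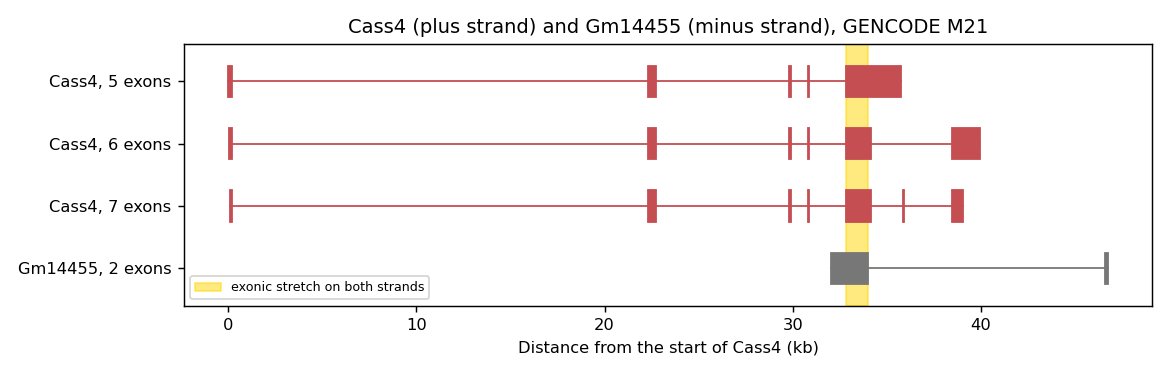
Exons (boxes) of the 3 Cass4 transcripts that the tables list (red) and of Gm14455 (grey), drawn to scale against distance in kb from the start of Cass4, from GENCODE M21. The yellow band is the 1130 bases that are exonic on both strands, in exon 5 of every Cass4 transcript drawn.

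Bcar1 (ENSMUSG00000031955) lies at chr8:111710474-111743809, Nedd9 (ENSMUSG00000021365) at chr13:41309581-41487362 and Efs (ENSMUSG00000022203) at chr14:54916535-54926126, all on the minus strand. None of the 4 shares a chromosome with Gars, which is on chromosome 6. Antisense genes also lie within the span of Nedd9, yet its deposited counts were whole numbers in 12 of 12 libraries, as were those of Bcar1 and Efs, whereas those of Cass4 and Gm14455 were whole in 0 of 12. The promoters differed in base composition. In RefSeq's windows of 250 bases before to 50 after the start (GRCm38.p6), Cass4 held 6 CG pairs, below the median of 7 over 32851 promoters, with 48.0% G and C. Nedd9 held 21 CG pairs, Efs 27, and the windows of Bcar1 29 and 30. The windows follow RefSeq's starts, and those of Cass4, Nedd9 and Efs do not contain the gene starts given above from GENCODE. That of Nedd9, at chr13:41358952-41359251, lies inside the gene. The Cass4 window and the first of Bcar1 are printed for this contrast, with CG pairs in capitals, at chr2:172393394-172393693 (plus strand) and chr8:111743800-111744099 (minus strand).
Cass4 promoter: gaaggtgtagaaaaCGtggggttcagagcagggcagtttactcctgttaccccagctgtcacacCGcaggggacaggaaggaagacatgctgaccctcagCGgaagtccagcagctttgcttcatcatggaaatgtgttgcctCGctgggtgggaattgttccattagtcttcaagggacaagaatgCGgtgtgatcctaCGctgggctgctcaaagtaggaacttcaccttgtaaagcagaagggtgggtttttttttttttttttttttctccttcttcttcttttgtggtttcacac
Bcar1 promoter: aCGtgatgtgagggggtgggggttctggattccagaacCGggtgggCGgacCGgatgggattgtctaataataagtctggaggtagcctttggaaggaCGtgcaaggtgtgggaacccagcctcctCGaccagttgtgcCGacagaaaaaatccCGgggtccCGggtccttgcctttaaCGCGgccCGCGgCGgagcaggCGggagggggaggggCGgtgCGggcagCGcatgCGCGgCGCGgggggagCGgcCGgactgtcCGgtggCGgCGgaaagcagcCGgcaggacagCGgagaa

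Expected counts gave a total of 27713981 to 43219891 fragments in a library. TPM, the deposited level per transcript length, allows levels of different genes to be compared. Neuron markers summed to 2198 to 2637 TPM in P278KY and 2161 to 2852 TPM in wt cords, and oligodendrocyte markers were above those sums in every library. Gars mRNA averaged 131 ± 7.36 CPM in P278KY and 124 ± 6.74 CPM in wt cords (n = 6 each, SD), with p = 0.132 in an exact permutation test (two-sided, smallest possible p 0.00216). CPM is the count scaled to a common library total. The mutation alters the protein, so this level does not check the labels. Xist and the Y-linked gene Ddx3y went against the labelled sex in 2 wt libraries, female wt 14 and male wt 19. Tests by labelled sex are therefore given with and without both, while genotype differences within a labelled sex include both.

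In TPM, Bcar1 stood highest, with 29.1 ± 2.88 TPM over the 12 libraries (SD), followed by Efs with 14.6 ± 1.66, Nedd9 with 9.87 ± 1.10 and Cass4 with 0.462 ± 0.215 TPM. Bcar1 exceeded Efs 1.995-fold in the geometric mean, in 12 of 12 libraries. Efs exceeded Nedd9 1.48-fold, in 11 of 12 libraries, female P278KY 4 being the exception. Nedd9 exceeded Cass4 23.5-fold, between 11.8 and 47.4-fold in single libraries. The mean log2 ratio within libraries differed from 0 for each neighbouring pair (exact two-sided sign-flip permutation, adjusted p = 0.000732, 0.000977 and 0.000732 over 3 pairs). The pairs were set by ranking the same 12 libraries, so these p-values do not allow for that choice. Cass4 therefore supplied a small part of the family's mRNA, 0.787 to 1.39% of the summed TPM in P278KY cords and 0.411 to 0.753% in wt cords.

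**Figure D2:**
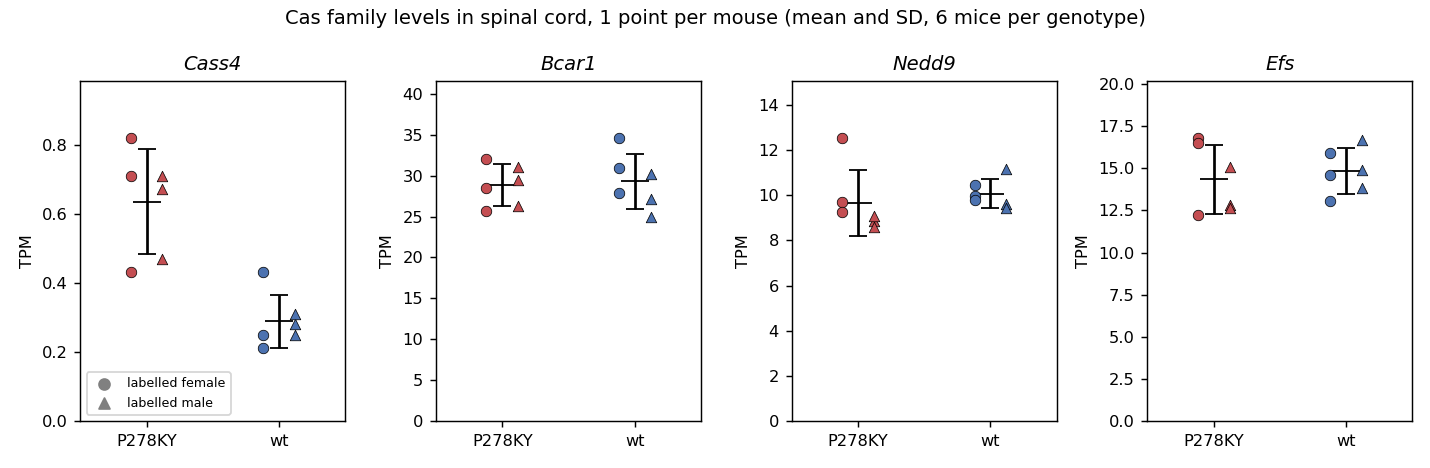
TPM of each Cas family gene in every mouse, P278KY (red) left of wt (blue), with circles for labelled females, triangles for labelled males, and the mean and SD of 6 mice in black. Each panel has its own scale from 0: Cass4 averaged 0.635 TPM in P278KY and 0.288 TPM in wt cords, while the 2 genotypes overlap in the other 3 panels.

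Cass4 was the member whose level differed most between genotypes, and its values chose the family. Its level was 0.71, 0.82 and 0.43 TPM in P278KY females 4, 7 and 10 and 0.47, 0.67 and 0.71 TPM in P278KY males 3, 5 and 13. In wt cords it was 0.25, 0.21 and 0.43 TPM in females 1, 2 and 14 and 0.28, 0.25 and 0.31 TPM in males 6, 9 and 19. In TPM the lowest P278KY library and the highest wt library were level, so 5 of 6 P278KY libraries lay above all wt libraries. On the CPM scale the genotypes did not overlap, at 0.826 to 1.504 CPM in P278KY and 0.413 to 0.796 CPM in wt cords. All 6 P278KY libraries above all 6 wt libraries was seen in 0.1% of the 17995 genes tested, a background from which nothing is read, since that contrast chose the gene. The fitted log2 difference was 1.15 ± 0.22 (SE, edgeR), a 2.22-fold higher level in P278KY, and it was 1.15 ± 0.32 in labelled females and 1.15 ± 0.32 in labelled males.

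Few fragments stand behind these levels. Cass4 held 26.3 to 48.6 expected counts in P278KY libraries and 14.04 to 26.4 in wt libraries. A rounded count of 14, as in female wt 2, has an exact Poisson 95% interval of 7.65 to 23.5, and the highest count, 49 in female P278KY 7, one of 36.3 to 64.8, which cover counting error only. These intervals lie apart, while those of female P278KY 10, at 17.0 to 38.1, and of male wt 19, also at 17.0 to 38.1, coincide. The intervals are of counts not scaled to library total, which was 31666238 in female P278KY 10 and 43219891 in male wt 19. Scaled, Cass4 stood at 0.826 CPM in female P278KY 10 and 0.617 CPM in male wt 19.

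The counts of Cass4 and Gm14455 were linked. Each gene's expected counts were fractions in all 12 libraries, and in all 12 the pair summed to a whole number (within 0.01). The sums were 46, 54 and 40 fragments in P278KY females 4, 7 and 10 and 46, 52 and 60 in P278KY males 3, 5 and 13, against 28, 36 and 37 in wt females 1, 2 and 14 and 34, 24 and 53 in wt males 6, 9 and 19. Cass4 was given 65.7 to 90.0% of the sum in P278KY libraries and 39.0 to 68.6% in wt libraries. Gm14455 was given 5.41 to 20.1 counts in P278KY libraries and 9.88 to 26.6 in wt libraries, with overlap and a log2 difference of -0.18 ± 0.30 (SE).

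Added together as 1 locus, the pair had 1.63 ± 0.250 CPM in P278KY and 1.00 ± 0.176 CPM in wt cords (SD, n = 6 each). The summed values did not overlap between genotypes, at 1.26 to 1.90 CPM in P278KY and 0.800 to 1.24 CPM in wt cords. The nearest libraries were female P278KY 10, at 1.258 CPM, and male wt 19, at 1.237 CPM. The sum contains the Cass4 counts that chose the family, so nothing is read from this either (0.1% of all tested genes had this order). The log2 difference of the sum was 0.69 ± 0.16 (SE), a 1.62-fold higher level, against 1.15 for Cass4 as deposited. The sum also takes in any fragments from the 1016 exonic bases of Gm14455 that lie outside Cass4 exons, and other ways of dividing the shared fragments were not tested. In labelled females the sum differed by 0.59 ± 0.23 and in labelled males by 0.80 ± 0.23 (log2, SE).

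**Figure D3:**
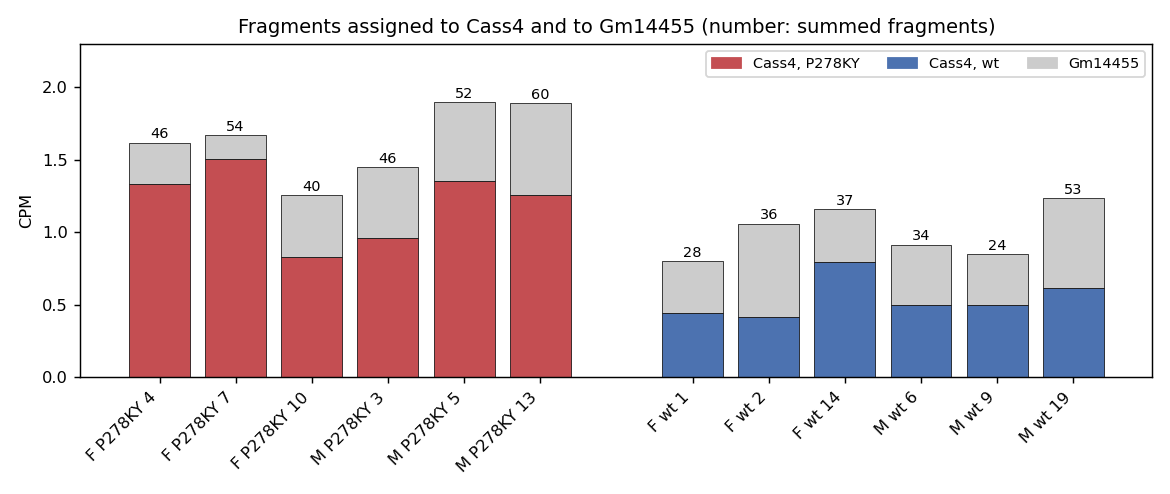
CPM assigned to Cass4 (red in P278KY, blue in wt) and to Gm14455 (grey, stacked on top) in each library, F and M giving the labelled sex and the last number the mouse. The number over each bar is the summed fragment count, 40 to 60 in P278KY and 24 to 53 in wt libraries; the summed bars of P278KY all stand above those of wt.

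Genes next to Cass4 had smaller fitted differences by genotype. The nearest 3 tested protein-coding genes on each side lay between -0.27 and 0.25 (log2). Cstf1, a factor of mRNA 3' end processing 11.3 kb before Cass4, had -0.04 ± 0.05, and Aurka, the gene of Aurora A kinase 23.3 kb before it, had -0.08 ± 0.13. Fam210b, a mitochondrial protein gene, had -0.01 ± 0.09. On the other side, Rtf2 (Rtfdc1 in the tables), a replication fork protein gene 6.8 kb away, had -0.07 ± 0.04, the secreted signal gene Bmp7 had -0.27 ± 0.11 and the meiotic recombinase gene Spo11 had 0.25 ± 0.53 (log2, SE, edgeR adjusted p = 0.9999 for each).

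Bcar1 had overlapping levels in the genotypes. It stood at 25.7, 32.1 and 28.5 TPM in P278KY females 4, 7 and 10 and 26.3, 31.1 and 29.5 TPM in P278KY males 3, 5 and 13, against 34.7, 27.9 and 31.0 TPM in wt females 1, 2 and 14 and 24.95, 27.2 and 30.2 TPM in wt males 6, 9 and 19. The highest and the lowest library were both wt. The fitted log2 difference was 0.02 ± 0.08 (SE).

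Nedd9 ranged from 8.59 to 12.6 TPM in P278KY and from 9.42 to 11.2 TPM in wt cords. In P278KY females 4, 7 and 10 it had 12.6, 9.68 and 9.24 TPM and in P278KY males 3, 5 and 13 it had 8.87, 8.59 and 9.06 TPM. In wt females 1, 2 and 14 it had 10.4, 9.95 and 9.79 TPM and in wt males 6, 9 and 19 it had 11.2, 9.62 and 9.42 TPM. In TPM, female P278KY 4 stood above every other library, while P278KY female 10 and the P278KY males stood below every wt library. In CPM, the scale of the fit, only 2 P278KY libraries lay below all wt libraries and 1 lay above them. The fitted log2 difference was -0.02 ± 0.08 (SE), and without female P278KY 4 it was -0.10 ± 0.05.

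Efs ranged from 12.3 to 16.8 TPM in P278KY and from 13.04 to 16.7 TPM in wt cords. It had 12.3, 16.8 and 16.5 TPM in P278KY females 4, 7 and 10 and 12.8, 15.1 and 12.7 TPM in P278KY males 3, 5 and 13, against 14.6, 13.04 and 15.9 TPM in wt females 1, 2 and 14 and 13.8, 14.9 and 16.7 TPM in wt males 6, 9 and 19. In TPM the wt values lay within the range of the P278KY values, while in CPM male wt 19 stood highest, at 34.5 CPM. The fitted log2 difference was -0.01 ± 0.10 (SE).

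**Figure D4:**
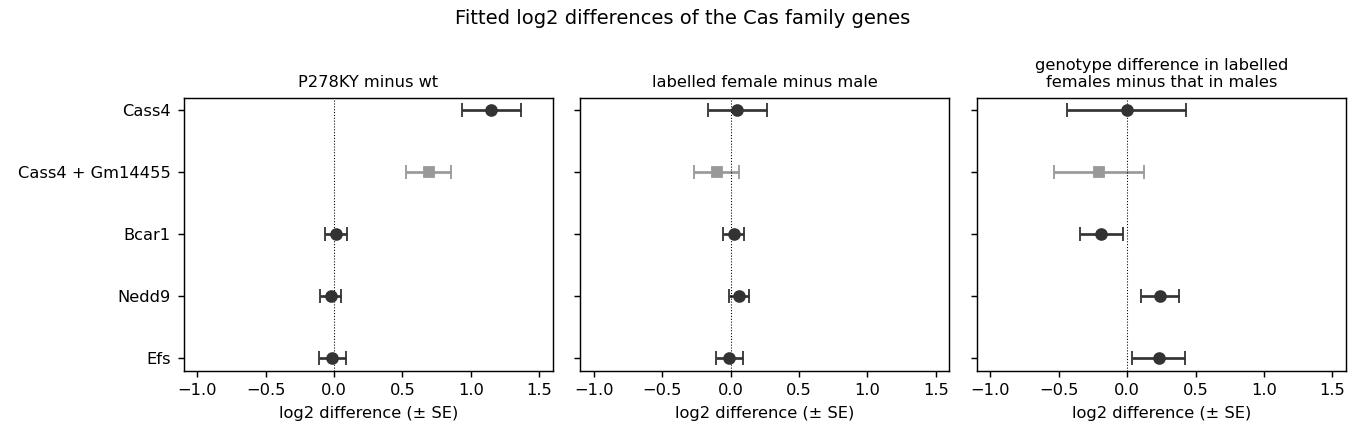
Fitted log2 differences with SE from edgeR over 12 libraries, for each Cas family gene (black circles) and for the sum of Cass4 and Gm14455 (grey squares), with the dotted line at 0. By genotype (P278KY minus wt, left) Cass4 lies at 1.15 and the sum at 0.69, while Bcar1, Nedd9 and Efs lie within 1 SE of 0; by labelled sex (centre) all 4 genes do too; the right panel gives the genotype difference in labelled females minus that in labelled males.

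Labelled sex did not enter the choice of the family and was tested. Cass4 differed by 0.05 ± 0.22, Bcar1 by 0.02 ± 0.08, Nedd9 by 0.06 ± 0.08 and Efs by -0.01 ± 0.10 between females and males (log2, SE; edgeR adjusted p = 0.9998 for each). None was called, where 0% of all tested genes were called by edgeR, 827 had an unadjusted p under 0.05 and DESeq2 called 27. Without female wt 14 and male wt 19 the value was -0.03 ± 0.22 for Cass4, 0.04 ± 0.09 for Bcar1, 0.08 ± 0.09 for Nedd9 and 0.02 ± 0.10 for Efs, so the sign turned for Cass4 and Efs.

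Whether the genotype difference itself varied with labelled sex was tested by the interaction. It was -0.0040 ± 0.43 for Cass4 (edgeR adjusted p = 0.9992), -0.19 ± 0.16 for Bcar1 (0.702), 0.24 ± 0.14 for Nedd9 (0.572) and 0.23 ± 0.19 for Efs (0.706), given as log2 with SE and edgeR adjusted p. None was called, where 0% of all genes were called by edgeR, 1967 had an unadjusted p under 0.05 and DESeq2 called 279. Without female wt 14 and male wt 19 it was 0.22 ± 0.46 for Cass4, -0.30 ± 0.16 for Bcar1, 0.24 ± 0.17 for Nedd9 and 0.20 ± 0.20 for Efs. Without female P278KY 4 alone the Nedd9 value was 0.09 ± 0.09. With an SE of 0.43, equal Cass4 differences in both sexes were not shown.

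The gene-level transcript length in the tables is weighted by the isoforms a library uses. Only Cass4, with 3 listed transcripts, and Nedd9, with 2, could vary. Cass4 averaged 3412 ± 123 bases in P278KY and 3456 ± 27.8 bases in wt libraries (SD, n = 6 each), and Nedd9 4398 ± 9.71 bases in P278KY and 4400 ± 6.76 bases in wt libraries. The wider spread of Cass4 in P278KY came with male P278KY 13, at 3175 bases, where the other 5 P278KY libraries lay between 3413 and 3515. By labelled sex the effective length of Cass4 was 3232 ± 30.1 bases in females and 3213 ± 129.98 in males, that of Nedd9 4187 ± 7.81 in females and 4189 ± 8.001 in males (exact two-sided permutation adjusted p = 0.92 for both). Without female wt 14 and male wt 19, females minus males gave 14.02 bases for Cass4 and -2.27 bases for Nedd9 (exact permutation adjusted p = 0.976 for both).

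The members did not vary together in a way that passed correction. Over 12 libraries Bcar1 and Nedd9 had Pearson's r of -0.68 (permutation p = 0.0194, adjusted 0.108 over 6 pairs) and Spearman's rho of -0.61 (permutation p = 0.0392, adjusted 0.150), and r was -0.35 without the 2 libraries farthest from the Bcar1 median. Bcar1 and Efs had r of 0.57 (permutation p = 0.0542, adjusted 0.108; rho 0.54, p = 0.0751, adjusted 0.150) and 0.27 without those 2. Nedd9 and Efs had r of -0.54 (permutation p = 0.0499, adjusted 0.108; rho -0.33, p = 0.297, adjusted 0.445) and -0.09 without the farthest 2. Within a genotype, Bcar1 and Nedd9 had r of -0.86 in the 6 P278KY libraries and -0.76 in the 6 wt libraries. The 3 pairs with Cass4 had r between -0.12 and 0.18 (permutation adjusted p of 0.868 or more) and rho between -0.54 and 0.14 (permutation adjusted p of 0.150 or more).

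Of all tested genes, the 5 whose levels followed Cass4 most closely were found by a ranking. Ranked by Pearson's r of log2 CPM over the 12 libraries, with predicted genes passed over, the first 5 were Mars (r = 0.93, rho = 0.85), Mthfd2 (0.90, rho = 0.94), Atf4 (0.90, rho = 0.84), Fgf21 (0.89, rho = 0.84) and Ccdc111 (0.84, rho = 0.90). Mars encodes methionyl-tRNA synthetase, Mthfd2 a mitochondrial folate enzyme, Atf4 the transcription factor of the integrated stress response, Fgf21 a secreted stress hormone and Ccdc111 the primase-polymerase PrimPol. These r values are descriptions of the same 12 libraries in which Cass4 differs by genotype, and genes that differ by genotype share that difference with it.

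Mars stood at 54.9 to 60.5 CPM in P278KY and 48.7 to 53.4 CPM in wt cords, and Ccdc111 at 7.58 to 8.54 CPM in P278KY and 6.71 to 7.53 CPM in wt cords. In TPM the Ccdc111 means ran the other way, at 3.82 TPM in P278KY and 3.90 TPM in wt cords. Atf4 stood at 87.4 to 98.8 CPM in P278KY and 66.5 to 83.5 CPM in wt cords. Mthfd2 overlapped between genotypes, at 16.6 to 21.4 CPM in P278KY and 12.3 to 16.9 CPM in wt cords. Fgf21 was at 0.473 to 1.51 CPM in P278KY libraries and at most 0.0314 CPM in wt libraries. After genotype and labelled sex were removed, r with Cass4 was 0.82 for Mars, 0.68 for Mthfd2, 0.52 for Atf4, 0.27 for Fgf21 and 0.56 for Ccdc111. Of these, Mars alone was among the first 5 by the residuals. By whole gene spans in GENCODE M21, Mars and Ddit3 share 68 bases on opposite strands, and Mthfd2 overlaps the unnamed gene Gm43890 on its own strand. Whether these overlaps make their counts uncertain was not tested.

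**Figure D5:**
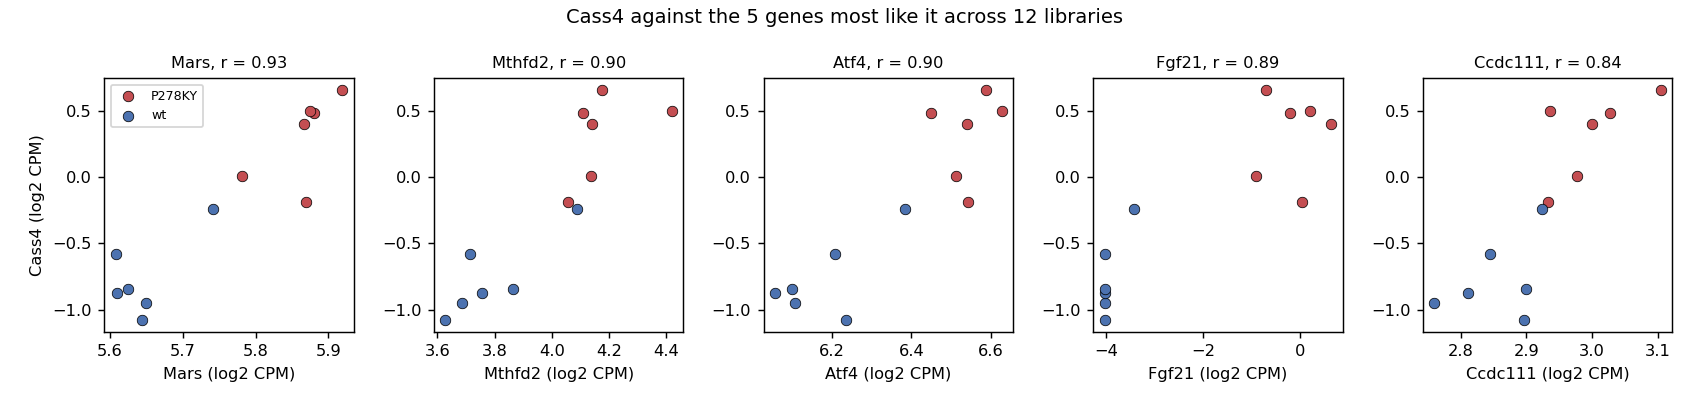
Log2 CPM of Cass4 (vertical) against log2 CPM of the 5 genes with the highest Pearson's r to it (horizontal, 1 panel each), 1 point per library, P278KY in red and wt in blue. The Fgf21 panel falls into 2 clusters by genotype (residual r 0.27), while the Mars panel has a residual r of 0.82 in which 1 wt library, female wt 14, lies far from the other wt points.

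The motif TGATGNAA, bound by ATF4 dimers, was searched on both strands, and 0 matches were found in the 5 RefSeq promoter windows of the 4 members, where 3.97% of 32851 promoter windows hold it. Sequence around the GENCODE starts of Cass4, Nedd9 and Efs, which lie outside these windows, was not searched. The genes most like the other members were different ones. For Bcar1 they were Emc3 (r = 0.92), Ntsr2 (0.92) and Aup1 (0.92), the first and the last being genes of endoplasmic reticulum proteins and Ntsr2 an astrocyte neurotensin receptor gene. For Nedd9 they were Zcchc11 (0.91), which encodes an RNA uridylyltransferase, and the giant cadherin genes Fat3 (0.91) and Fat4 (0.90). For Efs they were Cdk4 (0.96), a cell cycle kinase gene, Heg1 (0.95), a receptor gene of vessel development, and Ehd1 (0.95), a gene of endosome recycling.

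Genes that act with Cas proteins were measured next, in 6 lists of 78 genes of which 76 were tested. By genotype edgeR called 0 of the 76, against 0.00556% of all genes (1 gene, Fgf21, higher in P278KY), with 3 at an unadjusted p under 0.05, and DESeq2 called 0. Fitted levels were higher in P278KY for 32 and lower for 44, where 46.9% of all tested genes were fitted higher. The median log2 difference was -0.01, against -0.0064 over all tested genes. None of the 76 had non-overlapping genotypes, where 0.222% of all genes did.

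Among 12 tyrosine kinases that act on Cas proteins, 7 were fitted higher and 5 lower (median 0.00049). Fyn, a Src family kinase, was the most abundant, with 277 ± 24.4 TPM in P278KY and 280 ± 27.9 TPM in wt cords (SD, n = 6 each), followed by Csk, which restrains Src kinases, with 49.3 ± 2.296 TPM in P278KY and 52.3 ± 2.72 TPM in wt cords. Yes1 had the smallest p of the list (log2 difference 0.11 ± 0.07, SE). Of 6 phosphatases 1 was fitted higher and 5 lower, with Ptpn11 at 59.8 ± 2.04 TPM in P278KY and 63.9 ± 3.54 TPM in wt cords. Ptprf, a receptor phosphatase, had -0.09 ± 0.05 and Ptpn2 -0.07 ± 0.06 (log2, SE).

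Of 16 adaptors and exchange factors downstream of Cas, 8 were fitted higher and 8 lower. Rac1, the GTPase at the end of this route, had 292 ± 16.6 TPM in P278KY and 290.0 ± 9.46 TPM in wt cords, and the adaptor Grb2 had 106 ± 9.32 TPM in P278KY and 107 ± 8.60 TPM in wt cords (SD, n = 6 each). The adaptor Nck2 had -0.12 ± 0.05 and Elmo2, a partner of Dock1, -0.10 ± 0.05 (log2, SE). The 3 genes of proteins that bind the C-terminal part had small values below 0, with Bcar3 at -0.08 ± 0.10, Sh2d3c at -0.05 ± 0.07 and Aurka at -0.08 ± 0.13.

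Of 17 tested focal adhesion genes, 5 were fitted higher and 12 lower. Ilk, an integrin-linked pseudokinase gene, had 116 ± 8.39 TPM in P278KY and 121 ± 11.4 TPM in wt cords, and the kindlin gene Fermt2 80.2 ± 7.26 TPM in P278KY and 80.5 ± 3.95 TPM in wt cords. Their partners Lims1 and Parva had 0.12 ± 0.08 and -0.08 ± 0.06 (log2, SE). Of 22 tested integrin subunits, 11 were fitted higher and 11 lower. Itgb1, the common beta subunit, had 128 ± 10.8 TPM in P278KY and 127 ± 12.3 TPM in wt cords. Itgb4, a subunit of Schwann cells and epithelia, had a log2 difference of -0.42 ± 0.15 and Itgb6, an epithelial subunit, 1.37 ± 0.62 at a mean of 0.485 TPM over all libraries. Itga6, the partner of Itgb4, had -0.24 ± 0.12 (SE).

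Markers of other cells were read beside the Cass4 values, in 18 lists. By genotype edgeR called 0 of their 116 tested genes, against 0.00556% of all tested genes. An unadjusted p under 0.05 was found for 6 of the 116, of which 5 were skeletal muscle genes and 1 a sensory ganglion gene, and for 736 of the 17995 genes in all. Fitted levels were higher in P278KY for 73 and lower for 43 of the 116, where 46.9% of all tested genes were fitted higher. Markers of the same list can move together, so these counts are descriptions only. Microglial markers summed to 219 to 321 TPM in P278KY and 208 to 304 TPM in wt cords, with 11 of 12 fitted higher. Activated microglia markers summed to 53.4 to 126 TPM in P278KY and 43.9 to 140 TPM in wt cords, with all 6 tested fitted higher. Spp1 was the largest part of that sum, with a mean of 48.1 TPM over all libraries. Clec7a, Cst7, Gpnmb and Itgax averaged 0.553, 0.198, 0.148 and 0.0867 TPM, so the sum says little of them and is no measure of microglial activation. Skeletal muscle markers summed to 90.4 to 2809 TPM in P278KY and 11.7 to 1086 TPM in wt cords, with medians of 684 TPM in P278KY and 44.5 TPM in wt cords and 10 of 10 fitted higher. Of the 18 sums, the muscle sum had the highest Pearson's r with Cass4 (0.70, log2 of TPM plus 0.1) and the neuron sum the lowest (-0.27). After muscle came meninges and fibroblasts (0.58), activated microglia (0.54) and cartilage and bone (0.53). These r values pool both genotypes, so a sum that differs by genotype shares that difference with Cass4. Mast cell and eosinophil markers summed to 30.4 to 52.5 TPM in P278KY and 32.5 to 44.99 TPM in wt cords, with 5 of 7 fitted higher. Markers of meninges and fibroblasts summed to 521 to 904 TPM in P278KY and 358 to 1567 TPM in wt cords, with 5 of 5 fitted higher. In the other direction, Schwann cell markers summed to 21.8 to 1945 TPM in P278KY and 169 to 2743 TPM in wt cords. Of these markers 6 of 6 were fitted lower, with a median log2 difference of -0.85. The Schwann cell sum also split by labelled sex. Labelled females of both genotypes had 1218 to 2674 TPM, and labelled males 21.8 to 644 TPM apart from male wt 6, at 2743 TPM. This split was not tested. Sensory ganglion markers summed to 1.38 to 3.23 TPM in P278KY and 1.61 to 119 TPM in wt cords, with 5 of 5 fitted lower and a median of -2.70. The 119 TPM was in female wt 14 alone, where the next highest wt library, male wt 19, had 3.82 TPM. Median sums were 1.6 TPM in P278KY and 2.58 TPM in wt cords. The ranges overlapped in each of these lists, no marker in them was at 0 in all libraries, and their part in the Cass4 difference was not tested.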

How the data were processed

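Poly(A) RNA libraries made with KAPA stranded mRNA kits were sequenced as paired ends, per the labels' protocols. The submitters' processing notes list the aligner Bowtie2 2.2.0 and the quantifier RSEM 1.2.12. Genome build, annotation and strand setting: not given in the sources used here. The authors deposited expected counts, which estimate the fragments of each gene and need not be whole. The authors' TPM and FPKM values are scaled for transcript length and library total, per the file headers, which also give transcript lengths in bases. GENCODE M21 (GRCm38) supplied positions. Its lengths for Bcar1, Nedd9 and Efs differ from the deposited ones, so the authors' annotation was another.

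Expected counts were rounded and filtered with filterByExpr over the 4 groups of 3 mice (17995 genes left; all 4 members passed), then scaled with TMM factors. edgeR 4.0.16 quasi-likelihood tests (R 4.3.3, robust) used genotype and labelled sex over 12 libraries, and 1 mean per group for the interaction, with Benjamini-Hochberg adjustment over all genes and a threshold of 0.05. SE is the log2 difference over the square root of F. Replicates are separate mice. Log2 CPM used a prior count of 2. Alternatives used DESeq2 1.42.0 and limma 3.58.1. The members, lists and tests were chosen with earlier results of these data known. Genes were named by rule: the members, Gars, genes overlapping or next to Cass4, the genes most like each member (5 or 3), and in each partner list the 2 with the smallest p and the 2 with the highest mean TPM. The fit was tested on simulated data, with differences set only in genes of a mean CPM above 1. Cass4 averaged 0.875 CPM, so that simulation does not cover its level.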

Additional observations from a re-analysis of the deposited data

Results flagged for a closer look

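Within the 6 libraries of a genotype, 2 values stood apart by their gap to the next one relative to the group's range (above Dixon's 95% limit for 6 values, which chance passes in about 1 of 20 groups). Nedd9 had 12.55 TPM in female P278KY 4, where the next P278KY library had 9.68 TPM. The isoform-weighted length of Cass4 was 3175.08 bases in male P278KY 13, where the next lowest P278KY library had 3413 bases.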

How the results depend on the processing

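The genotype contrast chose Cass4, so the sign of its difference in other fits is a description and no support. It stayed above 0 under every alternative run, at 1.07 to 1.30 (log2) with single libraries left out. Under the same omissions Bcar1 ranged from -0.041 to 0.061, Nedd9 from -0.10 to 0.0021 and Efs from -0.062 to 0.045. Without female wt 14 and male wt 19 together, the genotype difference was 1.38 for Cass4, 0.060 for Bcar1, -0.049 for Nedd9 and 0.069 for Efs. The Cass4 difference was 0.34 with limma-trend on log2(TPM + 1), where the pseudocount exceeds the Cass4 level, and 0.69 with the Gm14455 counts added, an alternative chosen after seeing the data. The strict filter (CPM above 1 in 6 libraries) removed Cass4. Genes called by genotype numbered 1 in edgeR, 0 with the strict filter, 2 with no sex term, 33 in DESeq2, 0 without female wt 14 and male wt 19, and 1 to 3 with single libraries left out (3 without female wt 2, 2 without female P278KY 10).

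By labelled sex, the sign of Cass4 turned without both of those wt libraries (-0.034) and with Gm14455 added (-0.10), and that of Efs with library totals (0.0098), limma-trend on TPM (0.045 with a pseudocount of 1, 0.048 with 0.1) and without both (0.023). With single libraries left out the range was -0.089 to 0.15 for Cass4, -0.036 to 0.066 for Bcar1, -0.016 to 0.088 for Nedd9 and -0.064 to 0.047 for Efs. Genes called by sex numbered 27 in DESeq2, 10 without both and 0 to 25 with single libraries left out (25 without male wt 6, 1 without female wt 1 or female P278KY 10). The Cass4 interaction turned to 0.0031 in DESeq2, 0.028 in limma-voom, 0.013 and 0.025 with limma-trend on TPM (pseudocounts 1 and 0.1) and 0.22 without both, with -0.19 to 0.34 for single libraries. That range was -0.29 to -0.084 for the Bcar1 interaction, 0.090 to 0.31 for Nedd9 (lowest without female P278KY 4) and 0.13 to 0.37 for Efs. Interaction calls numbered 3 with no filter, 279 in DESeq2, 5 without both, 3 at a threshold of 0.1, and 0 to 3 with single libraries left out (3 without female wt 14, 1 without female wt 2). The cause of these changes was not tested. No member passed the threshold by sex or interaction in any of these fits.

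Of the 5 genes most like Cass4, 4 remained with a prior count of 0.5, 2 with Spearman's rho and 1 with residuals. With the prior count of 0.5, Ddit3 (r = 0.85) took the place of Ccdc111. By Spearman's rho the first 5 were Mthfd2, Ccdc111, Sycp3 (0.89), Csrp3 (0.89) and Sln (0.88). By residuals they were Asf1a (0.88), Mars, Stk31 (0.81), Scin (0.81) and Imp4 (0.80). The effective lengths of Bcar1 and Efs by sex, which follow fragment length alone, turned to -0.16 bases without both. No paired analysis was possible because the groups share no mouse number. At 14.04 to 48.6 counts per library, depth limits what can be said of Cass4.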
